A study of Mus musculus and Homo sapiens
Mus musculus with 16 samples.

Results

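The Neurod genes encode basic helix-loop-helix transcription factors of neuronal differentiation, and their promoter contacts were described here from H3K4me3 PLAC-seq of mouse fetal forebrain. The family was taken as Neurod1, Neurod2, Neurod4 and Neurod6, 4 of 20665 autosomal protein-coding genes in the RefSeq table of GRCm38.p6. An interaction was counted for a gene when either of its bins of 10 kb overlapped the gene body. By this rule 56 of the 58543 bin pairs listed in any library belonged to the family. PLAC-seq ligates DNA ends that are near one another inside the nucleus and enriches, with an antibody, the products bearing a histone mark. H3K4me3 is found at active and poised promoters, so the method enriches for contacts of such regions.

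The groups were fetal forebrain at E16.5 (embryonic stage; 2 libraries) and fetal forebrain at E12.5 (2 libraries), made from frozen, crosslinked tissue. No genetic change and no treatment is labelled in either group, and no cell type was sorted. The protocol text attached to these samples describes adult mice, so the strain and sex of the embryos were not taken from it. The labels do not say whether the replicates are separate litters, and the p-values therefore describe the spread among these libraries, which may be technical. The E16.5 libraries listed 35291 and 36794 interactions, against 18413 and 16075 in the E12.5 libraries, supported by 892987 and 911710 read pairs against 446855 and 405491. Sequencing depth is unknown, because the files hold only called interactions, and a gene at 0 is one with no interaction past the authors' threshold. In whole tissue, fewer cells of a type, weaker contacts per cell and less H3K4me3 at a bin cannot be told apart. The tissue label was read against 5 forebrain markers, of which 3 fell as a share of the library total, 2 did not pass and none was at 0 (summed numbers 201 and 184 at E16.5, against 201 and 211 at E12.5). Markers of 3 other cell types had sums of 30 and 27 against 28 and 28 (4 oligodendrocyte lineage genes, of which Olig2 was lower and Olig1 and Sox10 were at 0), 1 and 2 against 3 and 2 (4 microglia genes, with Csf1r and Cx3cr1 at 0) and 1 and 0 against 0 and 0 (4 endothelial genes, with Pecam1, Cdh5 and Kdr at 0).

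As background, proneural factors such as Neurog2 start neuronal differentiation in dividing progenitors, and the Neurod factors act after them as the cells become neurons. Neurod proteins pair with the widely expressed E-proteins and bind E-boxes, short DNA motifs of the form CANNTG. In the dorsal forebrain Neurod1 is known from intermediate progenitors and new neurons, and Neurod2 and Neurod6 from glutamatergic projection neurons. Neurod4, also called Math3, is known from retinal, hindbrain and other neuronal precursors.

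The promoters of the 3 members that had listed interactions are shown because H3K4me3 enrichment is read out at promoters and the family's own binding motif can be seen in them. The sequences are RefSeq windows on GRCm38.p6, 250 bases before to 50 after the annotated start. All 3 lie on the minus strand and are written in the direction of transcription, with each E-box (CANNTG, which reads the same on both strands) in capitals.
Neurod6, chr6:55681214-55681513: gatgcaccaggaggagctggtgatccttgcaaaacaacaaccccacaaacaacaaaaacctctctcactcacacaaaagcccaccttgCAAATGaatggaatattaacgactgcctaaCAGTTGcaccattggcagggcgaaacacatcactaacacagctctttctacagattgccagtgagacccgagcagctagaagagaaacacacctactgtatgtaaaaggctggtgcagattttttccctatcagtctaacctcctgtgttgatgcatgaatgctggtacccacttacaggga
Neurod1, chr2:79456587-79456886: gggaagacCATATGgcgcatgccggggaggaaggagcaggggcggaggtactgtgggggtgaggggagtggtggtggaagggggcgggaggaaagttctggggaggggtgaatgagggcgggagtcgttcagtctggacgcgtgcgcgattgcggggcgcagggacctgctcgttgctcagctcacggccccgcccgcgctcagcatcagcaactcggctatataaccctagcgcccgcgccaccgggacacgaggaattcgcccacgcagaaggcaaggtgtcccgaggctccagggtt
Neurod2, chr11:98329596-98329895: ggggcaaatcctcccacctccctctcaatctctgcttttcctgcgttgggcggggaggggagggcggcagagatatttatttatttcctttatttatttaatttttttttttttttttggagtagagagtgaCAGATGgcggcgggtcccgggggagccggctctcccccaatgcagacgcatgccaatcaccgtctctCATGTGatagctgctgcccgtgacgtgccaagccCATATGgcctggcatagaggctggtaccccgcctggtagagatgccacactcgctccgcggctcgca
The Neurod6 window held 2 E-boxes, the Neurod1 window 1 and the Neurod2 window 3, and CATATG was the form shared by Neurod1 and Neurod2. At least 1 E-box was present in 68.7% of the 20085 RefSeq promoter windows and at least 3 in 14.3%. The windows differed more in base composition. The observed over expected ratio of CpG was 0.19 in Neurod6, 0.84 in Neurod1 and 0.70 in Neurod2, beside a median of 0.586 over all windows. The GC box GGGCGG, read on both strands, was found 0 times in Neurod6, 4 times in Neurod1 and 2 times in Neurod2, and at least 1 was present in 47.0% of all windows. The windows at the 2 annotated starts of Neurod4 had CpG ratios of 0.20 and 0.32. A motif match here is a description of the letters and shows no binding.

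Neurod6 and Neurod1 had listed interactions in both E16.5 libraries and in neither E12.5 library, Neurod2 had interactions at both stages, and Neurod4 had none in the 4 libraries. Summed over the family, the E16.5 libraries listed 46 and 37 interactions, a mean of 41.5 ± 6.36 (SD, n = 2), and the E12.5 libraries listed 1 and 1. With every list shortened to the 16075 interactions with the lowest false discovery rate, as many as the shortest list held, the mean difference was 23, against 40.5 with the full lists. The order at E16.5 was Neurod6, Neurod1, Neurod2 and Neurod4 in both libraries, and no value of Neurod6 overlapped one of Neurod1. However, the body of Neurod6 falls on 2 bins and that of Neurod1 on 1. The bin with the start of Neurod6 alone had 21 and 15 interactions, against 9 and 15 for Neurod1, so these values met in replicate 2.

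**Figure D1:**
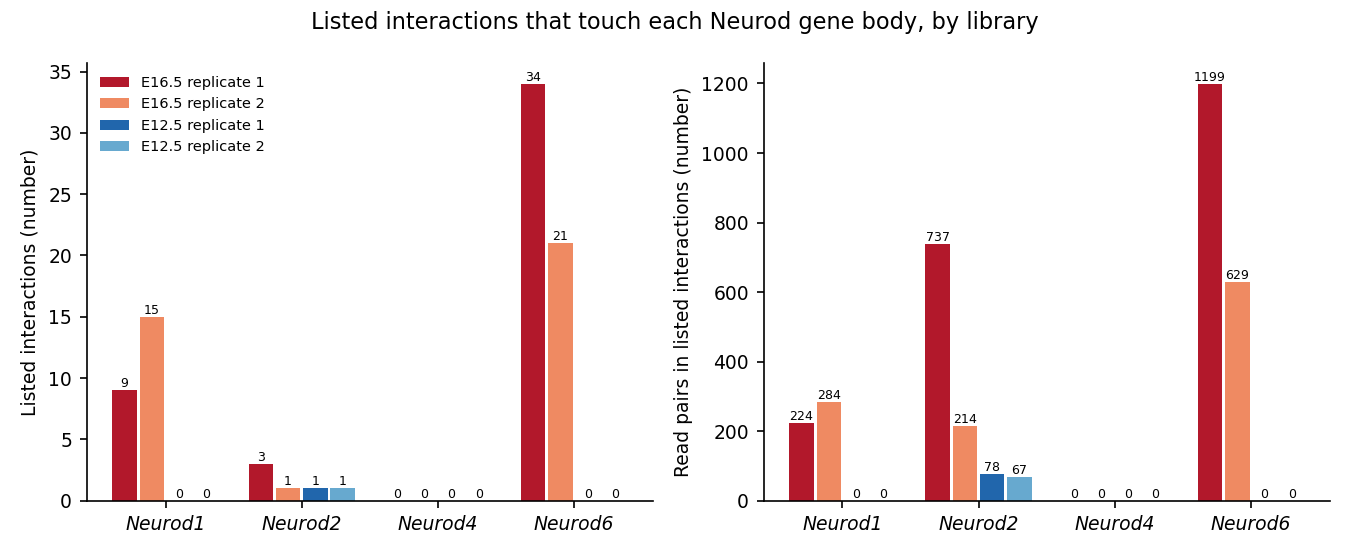
Listed interactions (left axis, number) and the read pairs in them (right axis, number) for each Neurod gene. Each bar is 1 library, E16.5 in red and orange and E12.5 in blue. Neurod6 reaches 34 and 21 interactions at E16.5 and 0 in both E12.5 libraries, and Neurod4 is at 0 throughout.

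Neurod6, also called Math2 or NEX, a factor of postmitotic cortical projection neurons, had 34 and 21 listed interactions in the E16.5 libraries, against 0 and 0 in the E12.5 libraries. These held 1199 and 629 read pairs at E16.5. The stages did not overlap, and E16.5 replicate 1 was the higher library in both measures. The difference passed edgeR's quasi-likelihood test (log2 change 7.43, SE 1.06, adjusted p = 0.000661, Benjamini-Hochberg over 3991 gene units with a sum of at least 10). A gene unit is a gene, or several genes on exactly the same bins. A fitted change against 0 depends on the prior count, so the size is given against a floor of 3 interactions over the E12.5 group. With bin pairs taken as independent, the number was at least 10.2-fold higher at E16.5. Neighbouring bin pairs are not independent, so this is no bound for separate contacts. With each cluster of the authors' caller counted as 1, Neurod6 had 3 and 6 at E16.5, against 0 and 0 at E12.5. Changes in number are relative to each library's total, with a median of 0.26 on the log2 scale over all units. In the same test 11.3% of the units were called higher at E16.5, 3.61% lower and 14.9% in either direction. Before any scaling, both E16.5 numbers exceeded both E12.5 numbers in 64.7% of the units and lay below both in 3.38%, with the E16.5 lists being the longer ones. Neurod6 passed the filter on low values through E16.5 alone, as did 7.22% of the units, and of these 74.0% were called higher.

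The gene lies on chromosome 6 (GRCm38, 55677818 to 55681263, minus strand, gene ID 11922) and spans 2 bins. The bin with its start, 55680001 to 55690000, had 21 and 15 interactions at E16.5, and the bin with the rest of its body had 13 and 6. Partners lay on both sides, 90 to 280 kb away with a median of 150 kb, and no partner lay closer. On the upstream side there were 23 and 12 interactions with 809 and 356 read pairs, and on the downstream side 11 and 9 with 390 and 273. The downstream side thus differed less between the replicates than the upstream side.

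The contact of Neurod6 with the most read pairs joined its start bin to the bin at 55790001 to 55800000, 110 kb upstream, with 98 and 73 at E16.5. The next bin, 55800001 to 55810000, had 94 and 34 read pairs with the start bin. Both overlap the noncoding gene Gm38820, and the bin at 55800001 holds its RefSeq start. That bin also holds the 5' end of the body of Itprid1, a plus-strand gene named for an ITPR-interacting domain. By summed read pairs over all libraries, these bins led with 265 and 198, followed by 3 downstream bins at 55540001, 55560001 and 55570001 with 146, 144 and 122. These 3 overlap another noncoding gene, Gm34441, and no protein-coding gene. Of the 22 partner bins, 12 overlapped Itprid1 and 10 overlapped no protein-coding gene. The annotated body of Itprid1 begins at 55805290, within the bin at 55800001. None of the 12 held the start of Itprid1 at 55837018, the one used for the promoter windows. Relative to the authors' expected counts the ranking differed. The start bin of Neurod6 had ratios of 5.01 and 5.89 with the bin 110 kb upstream. With the bin 270 kb upstream, which had 28 and 19 read pairs, the ratios were 6.02 and 5.67.

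The body of Itprid1, which spans 18 bins, itself had 33 and 18 listed interactions at E16.5, against 0 and 0 at E12.5. It too passed the filter through E16.5 alone, and it shares interactions with Neurod6. Of its interactions, 18 and 9 were contacts with Neurod6, and 15 and 9 were not.

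The partner bins of Neurod6 were also listed with each other across the gene. At E16.5, 13 and 11 interactions joined an upstream to a downstream partner bin, 220 to 290 kb apart in replicate 1 and 230 to 290 kb apart in replicate 2. Each held 13 to 27 read pairs in replicate 1 and 10 to 24 in replicate 2. On the upstream side all of them used the bins at 55790001 and 55800001, which also had the most summed read pairs with Neurod6. Within 300 kb on either side of Neurod6 the lists held 59 and 41 interactions at E16.5, against 0 and 0 at E12.5, and 25 and 20 of the E16.5 interactions did not touch the gene body. At E12.5 the whole neighbourhood was thus at 0, with or without the bins of Neurod6. At the same distances elsewhere, 90 to 280 kb, the E12.5 libraries listed 8600 and 7551 interactions, with a median of 23 read pairs in both and a lowest count of 7 and 8. The Neurod6 interactions at E16.5 had a median of 31.5 and 26 read pairs, beside 24 and 23 for all E16.5 interactions at these distances. Relative to the authors' expected counts the order was the other way, with medians of 3.13 and 3.12 for Neurod6, beside 3.32 and 3.38 for all.

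**Figure D2:**
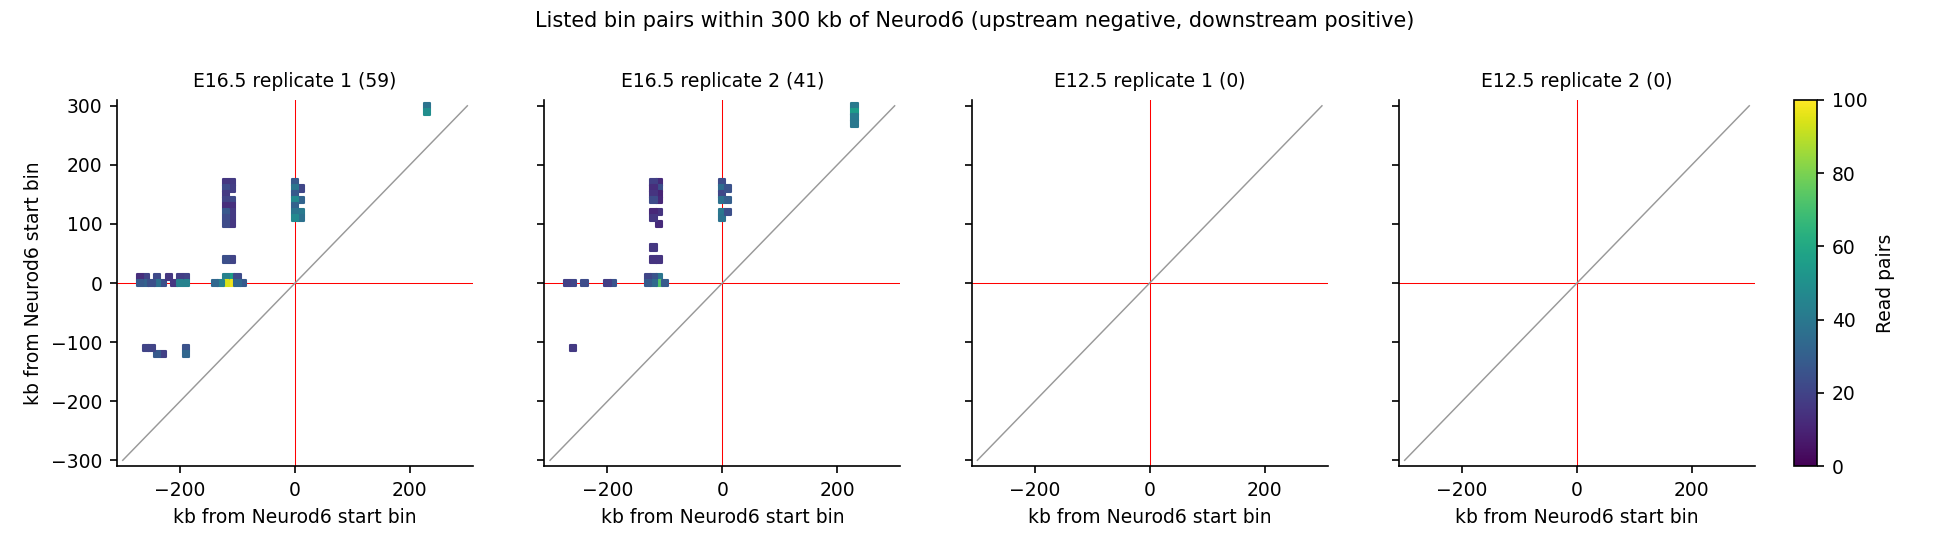
Bin pairs listed within 300 kb of Neurod6, 1 panel per library. Both axes give the distance in kb from the bin with the gene's start (upstream negative, downstream positive), the colour gives read pairs, and red lines mark that bin. The E16.5 panels hold 59 and 41 pairs, with a column between the upstream and downstream partner bins, and the E12.5 panels hold 0.

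**Figure D3:**
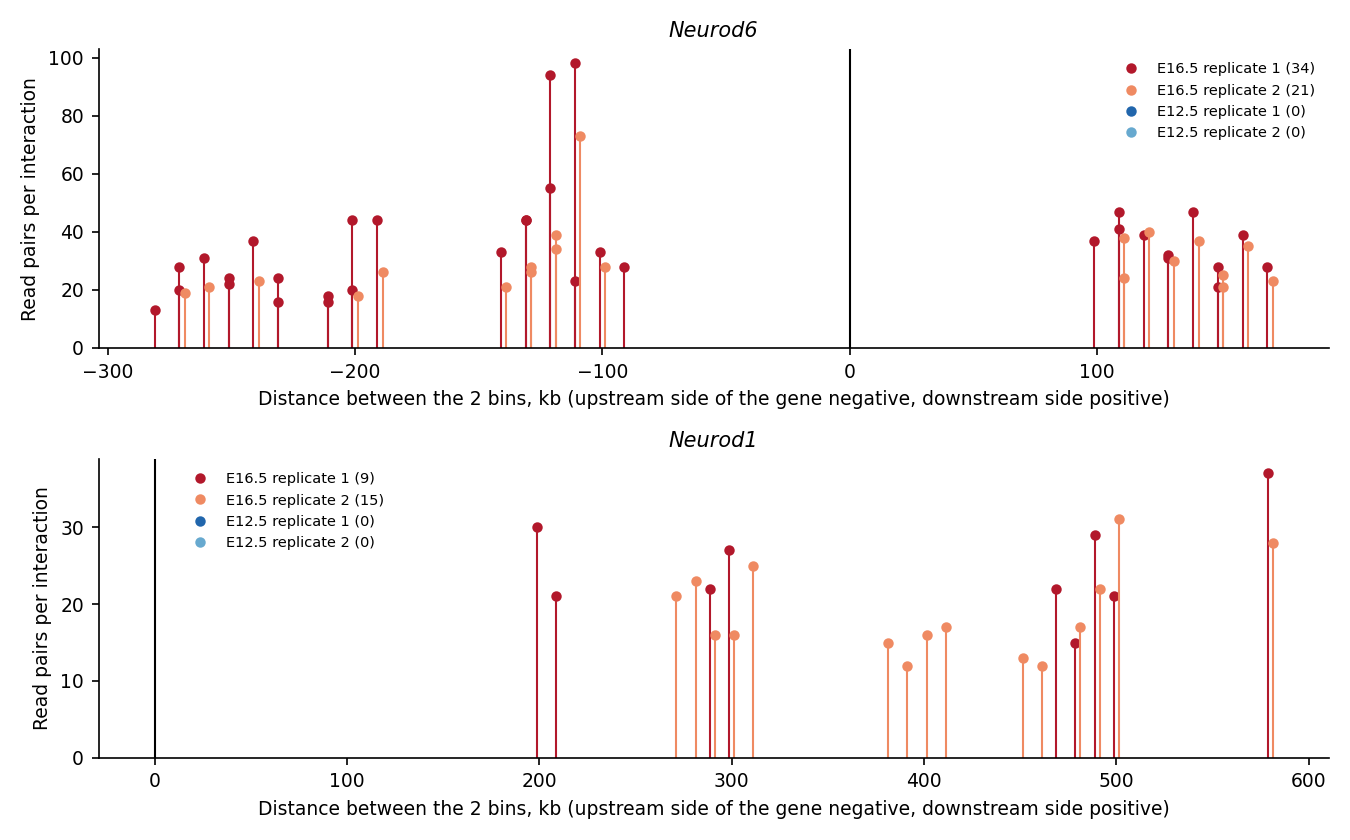
Read pairs of each listed interaction of Neurod6 (top) and Neurod1 (bottom) against the distance between its bins in kb. Points are interactions in E16.5 replicate 1 (red) and replicate 2 (orange); the E12.5 libraries have none. Neurod6 partners lie on both sides, highest at 110 and 120 kb upstream, and Neurod1 partners lie downstream at 200 to 580 kb.

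Of 35 bin pairs of Neurod6 listed in either E16.5 library, 20 were listed in both, or 57.1%, beside 40.5% of all 51298 bin pairs listed at E16.5. In 18 of the 20 the read pairs were higher in replicate 1. The 14 listed in replicate 1 alone had 13 to 37 read pairs. The authors' caller grouped the interactions of Neurod6 into 3 clusters in replicate 1 and 6 in replicate 2, so neighbouring bins are not independent contacts. With lists of equal length Neurod6 had 20 and 12 interactions at E16.5, against 0 and 0 at E12.5.

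Neurod1, a factor expressed as progenitors leave the cell cycle, had 9 and 15 listed interactions in the E16.5 libraries, against 0 and 0 in the E12.5 libraries. They held 224 and 284 read pairs. The stages did not overlap, and here E16.5 replicate 2 was the higher library. The difference passed edgeR's quasi-likelihood test (log2 change 6.24, SE 1.22, adjusted p = 0.00367). Against the same floor, and with bin pairs again taken as independent, the number was at least 4.44-fold higher at E16.5. Counted as clusters, Neurod1 had 4 and 5 at E16.5, against 0 and 0 at E12.5. Like Neurod6, it passed the filter through E16.5 alone. Without E16.5 replicate 2 its sum was 9, under the filter, and it was not tested. DESeq2 gave an adjusted p of 0.0750.

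Neurod1 lies on chromosome 2 (79452637 to 79456636, minus strand, gene ID 18012) within 1 bin, 79450001 to 79460000. All of its 18 partner bins were downstream, 200 to 580 kb away with a median of 395 kb, whereas 24 of the 35 bin pairs of Neurod6 were upstream. The distances of Neurod1 in E16.5 replicate 1 and replicate 2 had medians of 470 and 400 kb, beside medians of 300 and 290 kb for all interactions of those libraries. The farthest partner, at 580 kb, had the most read pairs in replicate 1, with 37, and had 28 in replicate 2. It overlaps Ube2e3, a ubiquitin-conjugating enzyme gene, and the start of the noncoding gene Gm51431. The bins at 500 and 490 kb followed, with 21 and 31 read pairs and with 29 and 22, and then those at 300 and 290 kb, with 27 and 16 and with 22 and 16. None of these 4 bins overlaps a protein-coding gene. The contact at 200 kb with the start bin of Itga4, an integrin subunit gene, had 30 read pairs in replicate 1 and was not listed in replicate 2.

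Of the 18 partner bins of Neurod1, 16 overlapped no protein-coding gene. The body of Ube2e3 had 9 and 14 listed interactions at E16.5, against 4 and 3 at E12.5, and did not pass (adjusted p = 0.353, edgeR). Of the 18 bin pairs, 6 were listed in both E16.5 libraries, or 33.3%. The bins at 380 to 410 kb and at 450 to 460 kb were listed in replicate 2 alone, with 12 to 17 read pairs each. The clusters of the authors' caller peaked at 580, 490, 300 and 200 kb in replicate 1 and at 580, 500, 450, 410 and 310 kb in replicate 2. The replicates thus shared 3 zones, near 580, 500 and 300 kb, to within 1 bin. At 200 to 580 kb the E12.5 libraries listed 9235 and 8047 interactions elsewhere, with a median of 17 read pairs in both. Neurod1 at E16.5 had medians of 22 and 17, beside 18 and 17 for all E16.5 interactions at these distances. Relative to the authors' expected counts the medians were 4.04 and 4.03 for Neurod1, beside 4.12 and 4.29 for all. With lists of equal length Neurod1 had 5 and 7 interactions at E16.5, against 0 and 0 at E12.5.

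Neurod2, a factor of maturing projection neurons, had 3 and 1 listed interactions in the E16.5 libraries, against 1 and 1 in the E12.5 libraries, so the groups overlapped. Its sum of 6 was under the filter, and its number was not tested. The gene lies on chromosome 11 (98325415 to 98329645, minus strand, gene ID 18013) within 1 bin, 98320001 to 98330000, and its partner bins all lay downstream and overlapped Cdk12, which encodes a kinase of transcription elongation. The nearest of them, at 40 kb, holds the end of Cdk12 at 98281101 and lies mostly outside that gene. What differed was the number of read pairs in the contact that all libraries shared.

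This contact, with the bin at 98260001 to 98270000, 60 kb from that of Neurod2, had 294 and 214 read pairs at E16.5, against 78 and 67 at E12.5. It was the sole member contact among the 6875 bin pairs listed in all 4 libraries. Read pairs were 2.71-fold higher at E16.5 relative to the library totals of these pairs (log2 change 1.44, SE 0.21, adjusted p = 9.2e-06, edgeR). In this test 10.5% of the bin pairs passed, 5.88% higher and 4.58% lower. The authors' expected counts for the same contact were 81.7 and 65.5 at E16.5, against 31.3 and 28.1 at E12.5. Observed over expected was thus 3.60 and 3.27 at E16.5, against 2.50 and 2.38 at E12.5. With the expected count as an offset in the test the change was 1.41-fold and did not pass (log2 change 0.49, adjusted p = 0.232). The contacts at 50 and 40 kb, with 136 and 307 read pairs, were listed in E16.5 replicate 1 alone.

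**Figure D4:**
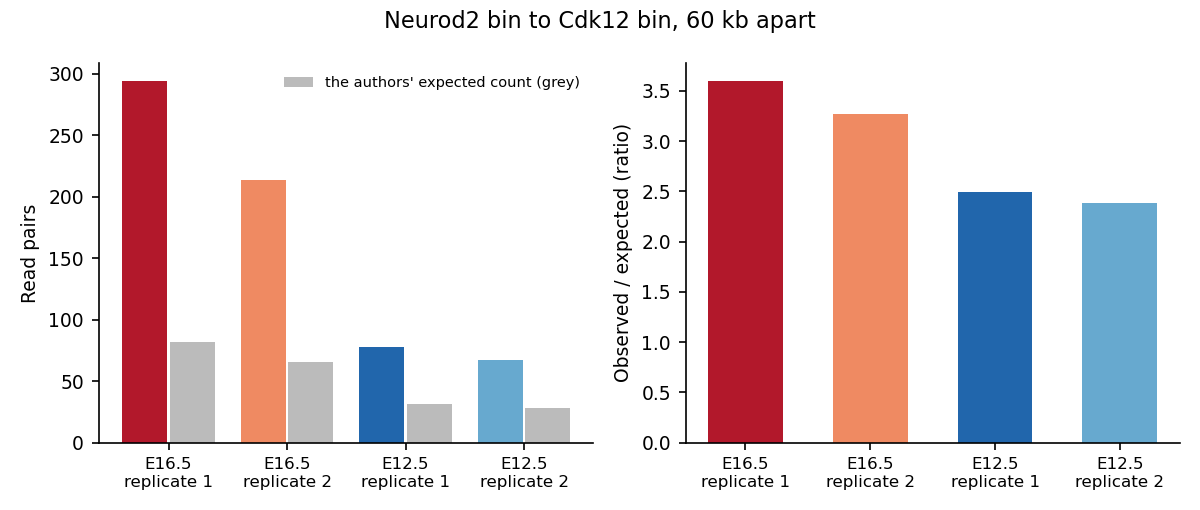
Contact between the Neurod2 bin and a Cdk12 bin 60 kb away, E16.5 libraries left and E12.5 libraries right. The left axis gives read pairs (coloured) beside the authors' expected count (grey), and the right axis their ratio. Read pairs are 294 and 214 at E16.5, against 78 and 67 at E12.5, while the ratio is 3.60 and 3.27 against 2.50 and 2.38.

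Neighbouring bins were listed with the same Cdk12 bin; they were chosen for mention after their values were seen. The bin that begins 356 bases from the start of Neurod2, 70 kb from the Cdk12 bin, had 85 and 95 read pairs at E16.5, against 56 and 38 at E12.5, and did not pass (log2 change 0.58, adjusted p = 0.103, edgeR). The next bin, at 80 kb and overlapping Ppp1r1b, the gene of the dopamine-regulated phosphoprotein DARPP-32, had 122 and 105 against 54 and 36 and was higher (log2 change 0.97, adjusted p = 0.00244). Without E12.5 replicate 2 this call was lost (adjusted p = 0.175), and with the expected count as an offset it did not pass either (adjusted p = 0.208). The bin on the other side of Neurod2, which holds no protein-coding gene, had 1 and 3 listed interactions at E16.5, against 0 and 0 at E12.5. With the gene body widened by 10 kb on both sides, Neurod2 had 7 and 6 interactions at E16.5, against 2 and 2 at E12.5. A contact here is known only to the bin, so it cannot be assigned to Neurod2 over its neighbours. The body of Cdk12 had 12 and 10 interactions at E16.5, against 4 and 5 at E12.5, and did not pass (adjusted p = 0.661).

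Neurod4 had 0 listed interactions in the 4 libraries. It lies on chromosome 10 (130268152 to 130280254, minus strand, gene ID 11923) across 3 bins, and the nearest bin in any listed interaction was 1368 kb away. No interaction was listed within 500 kb on either side of it at either stage. Most of the 27 protein-coding genes in that window belong to the olfactory receptor (Olfr) and vomeronasal receptor (Vmn2r) families. By contrast the same window around Neurod2 held 34 protein-coding genes and 22 and 27 interactions off the gene body at E16.5, against 15 and 16 at E12.5.

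Among the 4 libraries, the gene units on other chromosomes with numbers most like those of Neurod1, by Euclidean distance between their scaled log2 numbers, were Lrrtm2 (distance 0.00, with 9 and 15 at E16.5), Cttnbp2 (0.08) and Dlg2 (0.15). Those most like Neurod6 were Opcml (0.44, with 25 and 24 at E16.5), Ntm (0.58) and Ppp2r2b (0.67). All 6 had 0 and 0 at E12.5, but they were chosen by these same numbers, so this is no separate result. The numbers are per gene body and are not scaled to its length. By number, 185 and 457 units exceeded Neurod6 in the E16.5 libraries, and 1456 and 778 exceeded Neurod1.

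Genes around the Neurod step were read from the same test in 5 further lists. Of 49 such genes, 36 were tested, of which 9 were higher at E16.5 and 7 were lower, beside 11.3% and 3.61% of all units. Among the factors that act before Neurod, 2 of 6 tested genes fell and none rose, with a median log2 change of -1.04. Pax6, a homeobox gene of cortical radial glia, had 24 and 14 listed interactions at E16.5, against 41 and 34 at E12.5 (a 3.53-fold decrease, adjusted p = 0.000673, edgeR). Neurog2, the proneural gene of cortical progenitors, had 4 and 7 against 8 and 6 (adjusted p = 0.155), and Eomes, of intermediate progenitors, had 29 and 27 against 28 and 17 (adjusted p = 0.243). Neurog3 and Atoh1 were at 0 in the 4 libraries.

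Of the E-protein partners, Tcf4 rose and Tcf12 did not pass, and Tcf3 was not tested. Tcf4 had 73 and 59 listed interactions at E16.5, against 16 and 21 at E12.5 (1.98-fold higher, log2 change 0.98, adjusted p = 0.0162, edgeR). Without E12.5 replicate 1 its log2 change fell to 0.69. Its body spans 35 bins. With the bins of the gene's ends alone, Tcf4 did not pass (log2 change 0.33, adjusted p = 0.672, edgeR). Tcf12 had 7 and 14 against 1 and 6 (adjusted p = 0.491). Among the Notch pathway and Id genes, which hold back bHLH activity, 1 of 9 tested genes rose and 2 fell, with a median log2 change of -0.52. Hes1, a Notch effector, had 26 and 25 against 31 and 33 (a 2.25-fold decrease, adjusted p = 0.00456). Its call was lost with lists of equal length (adjusted p = 0.0739, edgeR) and without E12.5 replicate 2. Dll1, a Notch ligand, had 11 and 15 against 19 and 14 (adjusted p = 0.0209), with overlapping raw numbers. It was not called with lists of equal length (adjusted p = 0.311, edgeR), without E12.5 replicate 1 or without E16.5 replicate 1. Id2, an inhibitor that binds E-proteins, was the gene that rose, with 54 and 55 against 19 and 15 (adjusted p = 0.0301). It missed the threshold with the library total in place of TMM (0.0655), without E12.5 replicate 1 (0.125), without E12.5 replicate 2 (0.275) and without E16.5 replicate 2 (0.0619).

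Of 12 tested transcription factor genes of later neuronal differentiation, 4 rose and 2 fell, and the median log2 change was 0.01. Tbr1, of deep-layer projection neurons, had 43 and 36 listed interactions at E16.5, against 5 and 5 at E12.5 (4.33-fold higher, adjusted p = 0.00127). Myt1l, a zinc finger gene of neuronal identity, had 68 and 104 against 6 and 2 (11.7-fold higher, log2 change 3.55, adjusted p = 0.00011). Dropping E12.5 replicate 1 raised its log2 change to 4.41, whereas dropping replicate 2 of that stage lowered it to 2.98. Bhlhe22, a bHLH gene of cortical neurons, had 32 and 18 against 3 and 1 (6.69-fold higher, log2 change 2.74, adjusted p = 0.00474). For Bhlhe22 the log2 change was 3.59 with E12.5 replicate 1 left out and 2.18 with replicate 2 of that stage left out. The 2 that fell were Ebf2, with 6 and 6 against 15 and 8 (adjusted p = 0.0119), and Ebf3, with 24 and 10 against 31 and 17 and overlapping raw numbers (adjusted p = 0.0247). Both calls were lost without E12.5 replicate 1 (0.176 and 0.195), and that of Ebf3 also without E16.5 replicate 2 (0.115).

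Among migration and neurite genes, 3 of 7 tested genes rose and 1 fell, with a median log2 change of 1.05. Nrp1, a semaphorin receptor gene, had 100 and 101 listed interactions at E16.5, against 27 and 18 at E12.5 (2.47-fold higher, adjusted p = 0.000795). Gap43, a growth cone protein gene, had 15 and 17 against 2 and 0 (adjusted p = 0.00657). Its call was lost with lists of equal length (adjusted p = 0.163, edgeR) and without E12.5 replicate 2. Plxna4, a plexin gene, had 40 and 57 against 14 and 12 (adjusted p = 0.0214), and without E12.5 replicate 1, E12.5 replicate 2 or E16.5 replicate 2 it did not pass (0.106, 0.130 and 0.144). Cxcr4, a chemokine receptor gene, had 16 and 18 against 22 and 17 (adjusted p = 0.0236), with overlapping raw numbers. Its call was lost with lists of equal length (adjusted p = 0.158, edgeR) and whichever library was left out.

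**Figure D5:**
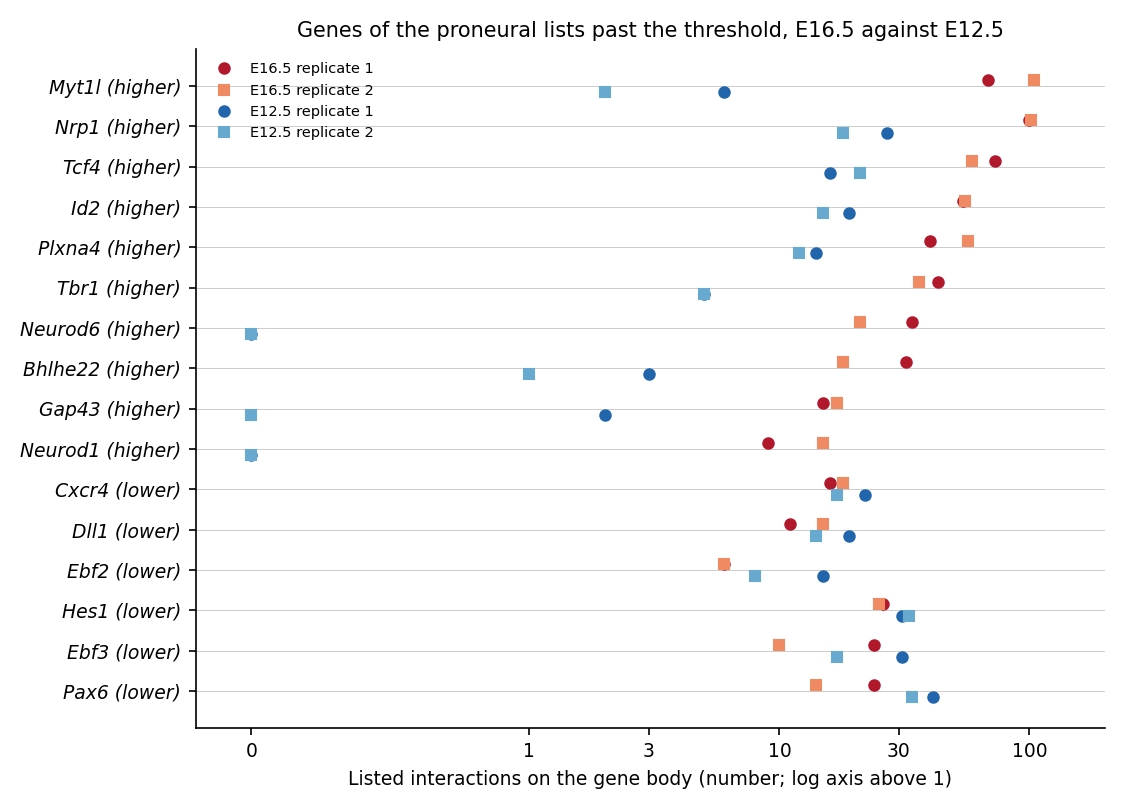
Listed interactions (number, log axis above 1) per library for 16 of the 18 genes of the proneural lists past the threshold, at E16.5 (red and orange) and E12.5 (blue). Neurod6 and Neurod1 sit at 0 in both E12.5 libraries, whereas Myt1l, Tbr1 and Nrp1 already have 2 or more in each.

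Some cell type markers also differed between the stages, and several markers (such as Pax6, Hes1 and Tbr1) are also in the lists above. Summed over 5 projection neuron markers, the libraries listed 148 and 126 interactions at E16.5, against 31 and 31 at E12.5, and 2 of the 5 rose. Over 7 radial glia markers they listed 130 and 101 at E16.5, against 150 and 140 at E12.5, and 4 of 6 tested fell. Over 3 intermediate progenitor markers they listed 51 and 54 at E16.5, against 41 and 31 at E12.5, and 0 passed by edgeR. Over 7 GABAergic markers they listed 186 and 147 at E16.5, against 114 and 104 at E12.5, and 1 fell. These sums are not scaled to the longer E16.5 lists. After scaling, the median log2 changes of the 4 groups were, in this order, 0.89, -1.06, -0.53 and -0.25. Over all units 11.3% were called higher and 3.61% lower. The part of cell composition in the Neurod results was not tested.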

How the data were processed

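Fetal mouse forebrain was profiled by H3K4me3 PLAC-seq in 2 libraries at E16.5 and 2 at E12.5. BWA, SAMtools and the build mm10 are named, per the submitters' processing notes. Tool versions, the caller of interactions and its settings were not given in the sources used here. The authors list, per the file headers, for each called interaction of 10 kb bins a count of read pairs, an expected count (a model signal), an FDR (a q-value) and a cluster with its size and −log10 p. The deposited files hold pairs on 19 autosomes, 20 to 1000 kb apart, with an FDR under 0.01 and observed counts over 2 times the expected. Library depth is unknown.

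Gene bodies and promoter windows came from RefSeq tables of GRCm38.p6, whose primary sequence is that of mm10. Contact number was the count of listed interactions touching a gene body, and contact strength the deposited count of read pairs. Both were tested with edgeR 4.0.16 in R 4.3.3 (TMM, robust quasi-likelihood, stage as the sole term, Benjamini-Hochberg at 0.05), with changes as E16.5 minus E12.5. Contact number had 20434 gene units, of which 3991 with a sum of at least 10 were tested. SE is the log2 change over the root of the F statistic. Scripts were tested on simulated counts drawn independently, with no added spread between replicates and no dependence between neighbouring bin pairs. That run therefore gives no error rate for these data. Over 1720 contacts averaging 40 or more read pairs, the chi-square over its degrees of freedom was 2.09 for the E16.5 pair and 1.27 for the E12.5 pair, so no replicate was a copy.

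Named were all members, the 5 partner bins per member with the most read pairs, list genes past the threshold, or otherwise the 2 with the smallest p, the 3 most alike units per tested member, and tested member contacts past the threshold. Some genes that this rule picked are not reported here, though the counts over their lists include them. Members and lists were chosen with earlier results of these data known. The alternatives tried were DESeq2 1.42.0, library totals without TMM, other filters, equal list lengths, an FDR under 0.0001, each cluster as 1 interaction, read pairs, distances up to 200 kb, gene ends, bodies widened by 10 kb, quasi-dispersion held at 1 or above, the expected count as an offset, 10 distance bins, a replicate block and each library left out.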

Additional observations from a re-analysis of the deposited data

How the results depend on the processing

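Contact number called 593 gene units. The count was 97 with DESeq2, 258 with an FDR under 0.0001, 263 with lists of equal length and 160 with distances up to 200 kb. It was 0 by edgeR with clusters counted once and with read pairs in place of interactions, where 184 and 981 units had an unadjusted p under 0.05. Leaving out a library gave 268 to 507 (268 without E12.5 replicate 1, 318 without E12.5 replicate 2, 339 without E16.5 replicate 2). The family and the proneural lists held 18 calls, 7 with DESeq2, 4 with distances up to 200 kb, 0 by edgeR with clusters or read pairs, and 11 to 15 with a library left out. The adjusted p of Neurod6 was 0.0638 with read pairs and 4.30e-10 to 0.000750 with a library left out. That of Neurod1 was 0.0750 with DESeq2, 0.0638 with read pairs and 7.04e-05 to 0.0199 with a library left out. The low sums left Neurod6 untested with clusters counted once, and Neurod1 untested there, with distances up to 200 kb and without E16.5 replicate 2. Under the other alternatives run, both kept their call.

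The mean difference over the family, 40.5, was 25.5 with an FDR under 0.0001, 23 with lists of equal length, 22 with distances up to 200 kb, 9 with clusters counted once, 45.5 with widened bodies and 36 to 45 with a library left out. Contact strength called 719 bin pairs, 98 with DESeq2, 406 among pairs averaging 40 or more read pairs, 274 to 537 with a library left out (301 without E12.5 replicate 1, 274 without E12.5 replicate 2, 475 without E16.5 replicate 2) and 18, all higher, with the expected count as an offset. The Neurod2 contact had an adjusted p of 0.232 with that offset and 5.16e-11 to 0.00567 with a library left out. Over the 22 other named results, 252 of 347 recomputed values kept direction and call, 90 lost the call, 2 gained it and 3 changed sign, which were Id2 and Nrp1 with clusters counted once (adjusted p = 0.870 and 0.288) and Tcf12 without E12.5 replicate 1 (0.935). Over the left-out libraries, Tcf12 ran from 0.111 to 0.935. The values that kept direction and call include those of results that did not pass in the main test and again did not pass. These were 15 each for Tcf12, Ube2e3 and Cdk12, and 9 for the bin 70 kb from the Cdk12 bin. The causes of lost, gained and reversed calls were not tested. Deviations of same-numbered libraries correlated at 0.087 over 3991 units, so the numbers were not taken as a pairing. With the replicate block contact number called 338 units and contact strength 939 bin pairs, and the adjusted p was 0.0290 for Neurod1 and 0.00806 for Neurod6.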
